A study of Xenopus laevis with 6 samples.

Results

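The Notch receptors and ligands of Xenopus laevis were examined in embryos depleted of Neil2, a DNA glycosylase of base excision repair. The members were all features of the count tables whose name, without a final .L or .S, was one of 10 gene symbols: the receptors notch1, notch2 and notch3, the ligands dll1, dll4, dlc, jag1 and jag2, the transcription factor rbpj and the glycosyltransferase lfng. They comprised 19 of the 44958 features, because this allotetraploid frog carries a gene copy, or homeolog, on its long (L) and its short (S) chromosomes. For 9 of the 10 genes both homeologs were counted, and dll4 was represented by dll4.L alone (its S homeolog was not analysed here). The rule used names only.

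RNA-seq was carried out on whole embryos at stage 23, an early tailbud stage. Both groups came from in vitro fertilization and were injected with 40 ng of a Morpholino (MO) into the animal hemisphere at the 1-cell stage, the control MO group with a control oligonucleotide and the neil2 MO group with one directed against neil2. Morpholinos are synthetic antisense oligomers that keep a target RNA from being translated or spliced. Each group had 3 libraries, each from a pool of 6 embryos, and the labels name no further allele or agent in either group. The sources used here do not say whether the pools came from different females. If they did not, the p-values measure only the spread between pools.

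Both injected oligonucleotides are 25 bases long and are shown 5′ to 3′ because the labels give no other difference between the groups. The capitals in the neil2 MO mark the complement of a start codon, and an oligonucleotide at this position acts on translation. The control MO does not end in this complement.
control MO: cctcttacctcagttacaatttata
neil2 MO: gtctgactgtgggaccttccggCAT

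The libraries held between 11534725 and 24034094 counted reads, so that a floor of 3 counts corresponded to 0.125 to 0.260 CPM, the counts per 1000000 counted reads of a library. Such floors cover counting error only, as reads without molecular identifiers are not independent molecules. The target, neil2.L, had 3, 4 and 3 counts in control MO and 5, 4 and 15 counts in neil2 MO libraries, too few for an adjusted p-value. With a translation-blocking oligonucleotide these counts do not measure the knockdown. All 6 libraries held markers of neural tube, somite, epidermis, endoderm, pronephros and endothelium, as a whole embryo should, and 1 of 50 marker features, an epidermal one, had no read. Fewer cells of a type and less RNA per cell cannot be told apart in such bulk libraries.

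Notch signalling passes between touching cells. Delta and Jagged ligands on one cell bind a Notch receptor on its neighbour, the receptor is cleaved, and its released intracellular domain enters the nucleus, where it joins rbpj and switches on hes and hey genes. In the frog embryo the pathway spaces primary neurons and the ciliated cells of the epidermis by lateral inhibition, and it acts in segmentation of the somites and in formation of blood vessels. lfng encodes Lunatic fringe, which adds a sugar to the receptor and thereby changes its response to Delta and Jagged ligands.

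Neil2 depletion was compared with the control to ask whether transcripts of these genes changed. None of the 19 features was called by DESeq2, where a call needed a Benjamini-Hochberg adjusted p below 0.1 over all features and an absolute log2 fold change (neil2 MO over control MO) above 0.5. Of all 23457 features tested, 2.29% were called. An unadjusted p below 0.05 was obtained for 3 of the 19 features (15.8%, against 9.84% of all features), namely jag1.S, lfng.L and lfng.S. edgeR also called 0 of the 19, with 3 below an unadjusted p of 0.05, and called 0.406% of the features it tested.

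Libraries with the same replicate number deviated together from their group means, so the number was also used as a block. In that DESeq2 fit 1 of the 18 members tested was called, jag1.S, which fell, while 5.88% of all features were called. With the block edgeR called 2 members, jag1.S and jag2.L, both lower, and 8.18% of all features. The log2 fold change was negative for 13 of the 19 features (68.4%, against 48.3% of all features tested), with a median of -0.10 against 0.01 over all features. The plot of fold changes shows jag1.S, jag2.L, dll4.L and both lfng homeologs to the left of the other members. Of all members, dll4.L and jag2.L had the lowest mean counts.

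**Figure D1:**
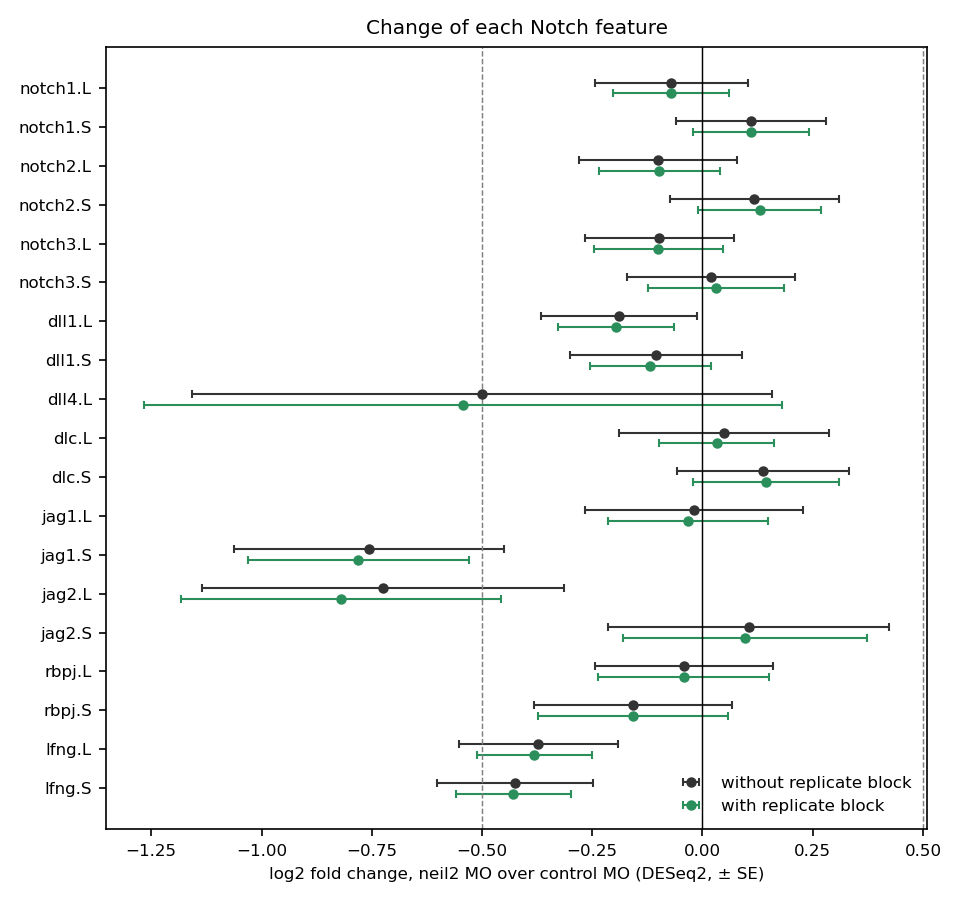
The log2 fold change of neil2 MO over control MO from DESeq2 is plotted for each of the 19 features, with bars for ± SE, without (black) and with (green) the replicate block; dashed lines mark ±0.5. jag1.S lies at -0.76 and jag2.L at -0.73 without the block, lfng.L at -0.37 and lfng.S at -0.42, and the 6 receptor features lie between -0.10 and 0.12.

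The receptors came first. notch1.L, the L copy of the receptor best known from neural and epidermal lateral inhibition, was measured at 133, 148 and 120.2 CPM in control MO libraries and at 110.4, 119.6 and 139 CPM in neil2 MO libraries. notch1.S gave 106.6, 115.9 and 95.2 CPM in control MO and 100.6, 106.9 and 123 CPM in neil2 MO. The groups overlapped for both copies. neil2 MO replicate 3 was the highest library of its group for both, and the other 2 neil2 MO libraries were below all control libraries for notch1.L but not for notch1.S. The log2 fold changes were -0.07 ± 0.17 (SE, n = 3 per group, as throughout) for notch1.L and 0.11 ± 0.17 for notch1.S.

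notch2.L was at 39.4, 48.0 and 44.6 CPM in control MO and at 36.7, 40.8 and 41.0 CPM in neil2 MO. notch2.S was at 42.0, 53.8 and 39.9 CPM in control MO and at 44.7, 49.7 and 47.6 CPM in neil2 MO. The L copy of this receptor thus had the lower mean in neil2 MO and the S copy the higher one, each with overlapping groups. Their log2 fold changes were -0.10 ± 0.18 and 0.12 ± 0.19 (SE).

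notch3.L was at 33.4, 32.0 and 33.3 CPM in control MO and at 29.0, 27.7 and 32.2 CPM in neil2 MO. notch3.S was at 49.5, 52.0 and 37.5 CPM in control MO and at 42.1, 44.9 and 48.8 CPM in neil2 MO. Of these, notch3.L had only 1 neil2 MO library within the control range, whereas control MO replicate 3 of notch3.S was below all other libraries. The log2 fold changes were -0.10 ± 0.17 and 0.02 ± 0.19 (SE), the latter with a CPM mean that was lower in neil2 MO, so its direction depended on the scaling.

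Over the 6 receptor features the 95% intervals of the log2 fold change reached from -0.45 to 0.49. Each of the 6 intervals included 0, and changes beyond that range lay outside all of them. No receptor feature had an unadjusted p below 0.05 by DESeq2 or by edgeR.

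**Figure D2:**
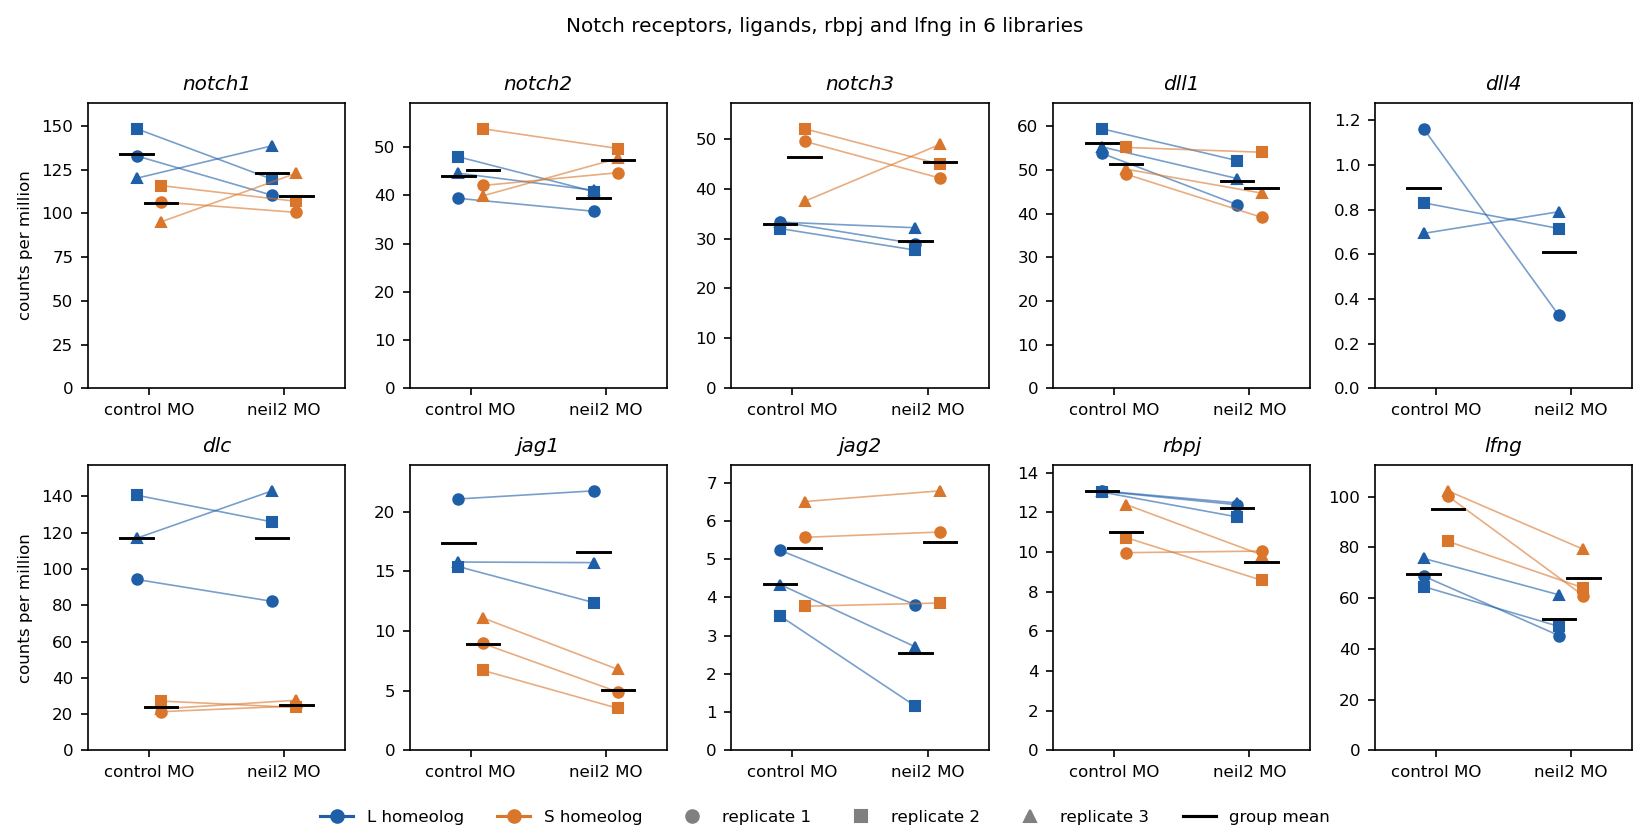
CPM of the L (blue) and S (orange) homeolog of each gene are plotted in control MO and neil2 MO libraries; symbols give the replicate number, lines join libraries of equal number, and black bars are group means. Both lfng homeologs were lower in all 3 neil2 MO libraries than in any control MO library, while the receptor groups overlapped.

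Among the Delta ligands, dll1, which neuronal precursors present to their neighbours, had values that leaned lower. dll1.L was at 53.8, 59.5 and 55.3 CPM in control MO and at 42.1, 52.2 and 48.1 CPM in neil2 MO. All 3 neil2 MO libraries were below the lowest control MO library in CPM, a pattern found for 10.3% of all features tested. After division by DESeq2 size factors the groups of dll1.L overlapped, and the log2 fold change was -0.19 ± 0.18 (SE; adjusted p = 0.89, DESeq2).

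dll1.S was at 49.0, 55.2 and 50.2 CPM in control MO and at 39.2, 54.1 and 44.7 CPM in neil2 MO, with a log2 fold change of -0.11 ± 0.19 (SE). Here neil2 MO replicate 2 lay within the control range and the other two below it. dll4.L, the ligand of sprouting vessels, was close to the limit of detection. It had 24, 13 and 8 counts in control MO and 6, 13 and 19 counts in neil2 MO. Its log2 fold change of -0.50 had a 95% interval from -1.79 to 0.79, so that neither direction could be told at this depth.

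dlc is a Delta ligand expressed in the segmenting mesoderm of the frog, and its L copy varied with the replicate number more than with the group. dlc.L was at 94.2, 140.6 and 117.0 CPM in control MO and at 82.2, 126.0 and 143 CPM in neil2 MO. Replicate 1 was the lowest library in both groups, and the log2 fold change was 0.05 ± 0.24 (SE). dlc.S was at 21.4, 27.2 and 22.9 CPM in control MO and at 24.5, 23.7 and 27.7 CPM in neil2 MO, a log2 fold change of 0.14 ± 0.20 (SE) with overlapping groups.

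In both Jagged ligands the mean of 1 homeolog was lower in neil2 MO by a larger percentage than that of any other ligand feature. jag1.S was at 8.96, 6.71 and 11.1 CPM in control MO and at 4.89, 3.52 and 6.78 CPM in neil2 MO, which is 43.2% lower on average. Only neil2 MO replicate 3 reached the control range, overlapping control MO replicate 2. The log2 fold change was -0.76 ± 0.31 (SE; adjusted p = 0.27, DESeq2) without the block and -0.78 ± 0.25 (adjusted p = 0.0340) with it.

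Within the 3 same-numbered pairs, jag1.S differed by -0.81, -0.85 and -0.68 on the log2 scale of normalized counts. The 3 pairs thus gave differences of like size, with replicate 3 the highest and replicate 2 the lowest library of both groups. By edgeR the adjusted p of jag1.S was 0.44 without and 0.00297 with the block. Leaving out neil2 MO replicate 3 alone also brought jag1.S past both thresholds without a block (log2 fold change -1.01, adjusted p = 0.0979, DESeq2).

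jag1.L was at 21.1, 15.4 and 15.8 CPM in control MO and at 21.7, 12.4 and 15.7 CPM in neil2 MO. It was highest in replicate 1 of both groups, with a log2 fold change of -0.02 ± 0.25 (SE). The lower values were thus those of the S copy, which was not called without the block on all libraries. The difference between the copies is tested below with the homeolog ratio.

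jag2.L, the L copy of the other Jagged ligand, was at 5.23, 3.51 and 4.33 CPM in control MO and at 3.80, 1.16 and 2.70 CPM in neil2 MO. neil2 MO replicate 2, with 21 counts, was the lowest library and neil2 MO replicate 1 lay within the control range. The log2 fold change was -0.73 ± 0.41 (SE; adjusted p = 0.61, DESeq2) without and -0.82 ± 0.36 (adjusted p = 0.19) with the block. Over the leave-one-out fits it ran from -1.11 to -0.40. edgeR with the block called jag2.L lower, with an adjusted p of 0.0276.

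jag2.S was at 5.57, 3.77 and 6.50 CPM in control MO and at 5.71, 3.85 and 6.78 CPM in neil2 MO. Replicate 3 was the highest and replicate 2 the lowest library of both groups, and the 3 paired differences were 0.10, 0.10 and 0.09 on the log2 scale. The log2 fold change was 0.11 ± 0.32 (SE), with a 95% interval from -0.52 to 0.73.

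rbpj, the DNA-binding partner of the cleaved receptor, changed little in value. rbpj.L was at 13.07, 13.03 and 13.09 CPM in control MO and at 12.4, 11.8 and 12.5 CPM in neil2 MO. The control libraries were nearly equal, although they held only 270, 204 and 151 counts, where counting error is wider than their spread. The neil2 MO libraries did not overlap with them. Their mean was 6.49% lower, and the log2 fold change was only -0.04 ± 0.20 (SE). rbpj.S was at 9.97, 10.7 and 12.4 CPM in control MO and at 10.1, 8.58 and 9.86 CPM in neil2 MO, a log2 fold change of -0.16 ± 0.22 (SE) with overlapping groups.

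lfng, the Fringe enzyme, was the only member of which both homeologs were lower in every neil2 MO library than in any control MO library. lfng.L was at 68.7, 64.6 and 75.7 CPM in control MO and at 45.3, 48.9 and 61.3 CPM in neil2 MO. lfng.S was at 100.2, 82.4 and 102.3 CPM in control MO and at 61.0, 64.0 and 79.3 CPM in neil2 MO. The means were 25.6% lower for lfng.L and 28.3% lower for lfng.S.

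The log2 fold changes were -0.37 ± 0.18 (SE) for lfng.L and -0.42 ± 0.18 (SE) for lfng.S, with adjusted p of 0.46 and 0.30 by DESeq2. With the replicate block they were -0.38 ± 0.13 and -0.43 ± 0.13, with adjusted p of 0.0550 and 0.0216. The block thus brought both past the p threshold, and both stayed short of the log2 fold change of 0.5 that a call required. edgeR with the block gave 0.0248 and 0.00910 for the same features.

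The 3 paired log2 differences were -0.54, -0.33 and -0.28 for lfng.L and -0.65, -0.29 and -0.34 for lfng.S. Replicate 1 had the widest gap in both copies. When the counts of both homeologs were summed, lfng went from 165 ± 15.9 to 119.9 ± 18.2 CPM (mean ± SD), a log2 fold change of -0.41 ± 0.17 (SE; adjusted p = 0.29 without and 0.00962 with the block, DESeq2).

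In total the CPM of 4 of the 19 features, dll1.L, rbpj.L, lfng.L and lfng.S, were lower in every neil2 MO library than in any control MO library (10.3% of all features were), and 0 were higher in every neil2 MO library (6.13% of all features). On DESeq2-normalized counts 3 of these features did not overlap, against 7.98% of all features lower in this way, as dll1.L overlapped on that scale. After summing homeologs 0 of the 10 genes were called with or without the block, and apart from dll4 and lfng the summed log2 fold changes lay between -0.23 (jag1) and 0.06 (dlc).

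The share of each feature's spread that went with the replicate number was then described. On log2 normalized counts the number carried 97.6% of the sum of squares of jag2.S, 90.8% of jag1.L, 89.0% of dlc.L and 81.9% of notch2.L, against a median of 56.4% over all features. The difference between the groups carried the majority of the total only for lfng.S (71.0%), lfng.L (65.5%), rbpj.L (63.9%), jag1.S (59.9%) and notch3.L (52.8%), against a median of 16.1%. It also carried more than the replicate number for rbpj.S (34.5% against 27.3%) and dll4.L (27.4% against 8.67%). With 6 libraries these shares are a description of the libraries.

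The balance of the 2 homeologs was measured as the L copy's percentage of the L plus S counts, in which sequencing depth cancels. Copies can differ in length, so the percentage is not a ratio of molecules and is compared only between groups. The log2 L to S ratio was tested with limma over 7252 pairs, of which 0.441% were called at an adjusted p below 0.1 (2.84% with the block). None of the 9 member pairs was called without the block, 2 (jag1 and jag2) had an unadjusted p below 0.05 against 10.4% of all pairs, and 1 (jag1) was called with the block.

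For jag1 the L copy gave 70.2%, 69.7% and 58.7% of the counts in control MO and 81.6%, 77.9% and 69.9% in neil2 MO. The share was higher in neil2 MO in each of the 3 same-numbered pairs, although neil2 MO replicate 3 lay within the control range. The log2 ratio differed by 0.74 ± 0.30 (SE; adjusted p = 0.47, limma) without and by 0.74 ± 0.12 (adjusted p = 0.0856) with the block.

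For jag2 the direction was opposite. The L copy gave 48.4%, 48.2% and 40.0% of the counts in control MO and 40.0%, 23.1% and 28.5% in neil2 MO, from 91 to 228 counts per library. The log2 ratio differed by -0.95 ± 0.31 (SE; adjusted p = 0.38 without and 0.15 with the block, limma). The Wilson 95% interval of the lowest share, that of neil2 MO replicate 2, ran from 15.6% to 32.7%.

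notch1 had tight shares in both groups, with 55.5%, 56.1% and 55.8% in control MO and 52.3%, 52.8% and 53.0% in neil2 MO. The means were 55.8% ± 0.33 and 52.7% ± 0.34 (SD), so that the groups were apart by several times the spread within them, on 2484 to 6290 counts per library. Their log2 ratio differed by -0.18 ± 0.11 (SE; unadjusted p = 0.16 and adjusted p = 0.68, limma). In limma the variance is moderated towards that of all pairs. For notch2 the L share was also lower in all 3 neil2 MO libraries (45.1%, 45.1% and 46.3%) than in control MO (48.4%, 47.1% and 52.8%), with a log2 ratio difference of -0.23 ± 0.14 (SE). How many of all pairs had groups apart in this way was not counted. Such a separation is therefore only a description of these pairs.

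For dll1 the L shares were 52.3%, 51.9% and 52.4% in control MO and 51.8%, 49.1% and 51.8% in neil2 MO. These dll1 groups did not overlap, though by a narrow margin. The shares of notch3, dlc, rbpj and lfng overlapped between the groups. lfng had nearly equal shares, 42.4% ± 1.64 in control MO and 43.2% ± 0.53 in neil2 MO (SD), so that both copies moved alike. For notch3, dll1, dlc and rbpj the log2 ratios differed by between -0.13 and 0.12.

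**Figure D3:**
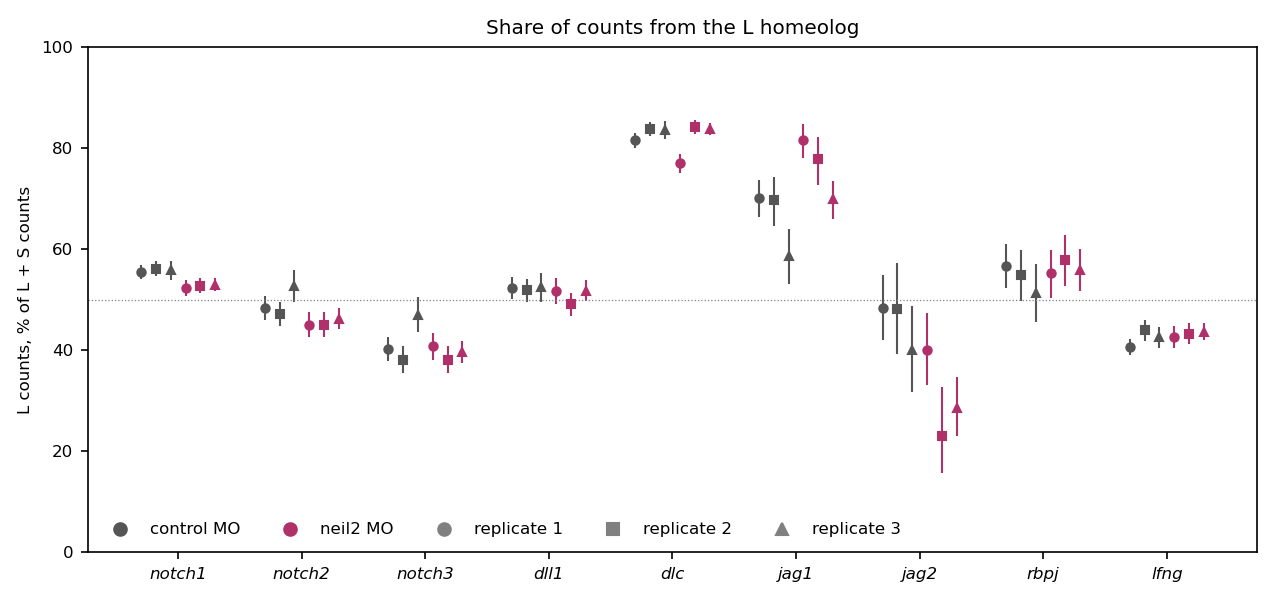
The percentage of L plus S counts that came from the L homeolog is plotted for 9 genes in each library (grey, control MO; magenta, neil2 MO), with Wilson 95% intervals that cover counting error only. The jag1 shares sit higher and the jag2 shares lower in neil2 MO. The notch1 shares lie near 55.8% in control MO and 52.7% in neil2 MO, with some intervals overlapping between the groups.

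The other genes of the pathway were taken from a list of 153 features, of which 141 were tested. Without the block 4 rose and 0 fell (2.84%, against 2.29% of all features called), and 15 had an unadjusted p below 0.05. edgeR called 1 of them raised, and with the block DESeq2 called 7 raised and 2 lowered of 138 tested, where 5.88% of all features were called. edgeR with the block called 7 raised and 7 lowered, where 8.18% of all features were called. The median log2 fold change of the list was -0.03.

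Of 5 tested features of ligands outside the members, 3 had negative log2 fold changes (median -0.20). Of these 3, cntn1.L (-0.88, adjusted p = 0.45, DESeq2) was called lower by edgeR with the block, where 8.18% of all features were called. It was named after its values were seen. dner.L, which encodes a Delta/Notch-like transmembrane protein of neurons, rose. It was at 1.16, 0.70 and 2.25 CPM in control MO and at 4.24, 2.42 and 4.99 CPM in neil2 MO. The log2 fold change was 1.59 ± 0.46 (SE; adjusted p = 0.0398, DESeq2), and dner.S gave 0.16 without a call. The call was kept without control MO replicate 3 or neil2 MO replicate 2, and was lost when any of the other 4 libraries was left out (adjusted p 0.26 to 0.38) and by edgeR (adjusted p = 0.26).

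Of the 6 glycosyltransferase features tested, rfng.L rose. Radical fringe is a paralog of Lunatic fringe and adds the same sugar. rfng.L was at 25.7, 23.8 and 25.1 CPM in control MO and at 34.7, 38.2 and 40.4 CPM in neil2 MO, a log2 fold change of 0.66 ± 0.17 (SE; adjusted p = 0.0141, DESeq2). Its groups did not overlap, it was called without each library in turn (adjusted p 0.0218 to 0.0878), and edgeR gave an adjusted p of 0.14. Its direction was opposite to that of the lfng values, which were not called.

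Nuclear cofactors, which join rbpj as co-activators or co-repressors, gave positive log2 fold changes in 16 of 18 features, with 1 call. Negative values made up 11.1% of them, against 48.3% of all features, and the median was 0.17 against 0.01. The L and S copies of a gene were counted here as separate features. ep300.S, a histone acetyltransferase used by many transcription factors besides rbpj, was at 39.0, 44.0 and 55.1 CPM in control MO and at 103.8, 76.2 and 127 CPM in neil2 MO. Its log2 fold change was 1.20 ± 0.22 (SE; adjusted p = 1.60e-05, DESeq2), while ep300.L gave 0.32 and was not called. It was the 1 feature of the list that edgeR called without the block (adjusted p = 0.0486).

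Among 14 negative regulators tested, dtx1.L, coding for the Deltex ubiquitin ligase that acts on the receptor in either direction depending on context, rose. It was at 1.69, 1.79 and 1.73 CPM in control MO and at 3.91, 2.97 and 4.78 CPM in neil2 MO, with a log2 fold change of 1.22 ± 0.37 (SE; adjusted p = 0.0554, DESeq2). dtx1.S gave 0.07. Without neil2 MO replicate 2 dtx1.L was called (adjusted p = 0.0598), and without any of the other 5 libraries it was not (adjusted p 0.13 to 0.33), nor by edgeR (adjusted p = 0.19). The groups that handle ligand endocytosis (13 features) and receptor proteolysis (16 features) had 0 calls with and without the block and medians of 0.00 and 0.03, with 0 features below an unadjusted p of 0.05 by DESeq2 or edgeR without the block.

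hes and hey genes, which include direct targets of the cleaved receptor, had negative log2 fold changes in 30 of 34 features tested (88.2%, against 48.3% of all features). Their median was -0.18, with 0 calls by DESeq2 with or without the block. The group was formed by gene name, and which of its features respond to the receptor was not tested. edgeR called 0 of 35 tested features without the block and 2 lower with it, where 8.18% of all features were called. These 2 were hes3.S (log2 fold change -0.62, adjusted p = 0.0498) and hes7.1.L (-0.55, adjusted p = 0.0693), both named after their values were seen. Without the block, 2 features of the group had an unadjusted p below 0.05 by DESeq2 (5.88%, against 9.84% of all features) and 2 by edgeR. Those by DESeq2 were both copies of hey1, named here after their values were seen. hey1.L was at 43.0, 33.8 and 37.8 CPM in control MO and at 24.1, 24.6 and 31.1 CPM in neil2 MO, and hey1.S at 41.7, 42.6 and 43.4 against 29.9, 28.5 and 31.2 CPM. Their log2 fold changes were -0.47 ± 0.19 and -0.46 ± 0.16 (SE), with adjusted p of 0.27 and 0.17 without and of 0.0491 and 0.0252 with the block by DESeq2. Like lfng, hey1 thus had both copies below all control libraries and short of the fold threshold. Of the 34 features tested in the group, 4 were below all control libraries in CPM, against 10.3% of all features tested.

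Of 16 somite segmentation features tested, 0 were called without the block and 3 had an unadjusted p below 0.05 by DESeq2 and by edgeR. With the block 2 of the 16 fell by DESeq2, where 5.88% of all features were called. These 2 were ripply2.L (log2 fold change -0.53, adjusted p = 0.0829), a repressor at somite boundaries, and ripply3.L (-0.54, adjusted p = 0.0636), a relative known from pharyngeal and placode tissue. Of 19 lateral inhibition features tested, 0 were called without the block and 3 had an unadjusted p below 0.05 by each tool (by DESeq2 15.8%, against 9.84% of all features). Negative log2 fold changes were found in 17 of the 19 (89.5%, against 48.3% of all features). The 2 exceptions were the copies of foxj1, which drives the formation of motile cilia, at 0.50 for foxj1.L and 0.51 for foxj1.S. With the block both were called raised, at adjusted p of 0.0531 and 0.00903 (DESeq2). They were 2 of the 18 features of this group tested in that fit, which called 5.88% of all features. edgeR with the block, which called 8.18% of all features, called the same 2 raised and also 2 features lower. Among the lower ones was atoh1.S (log2 fold change -1.12, adjusted p = 0.0677), named after its values were seen.

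**Figure D4:**
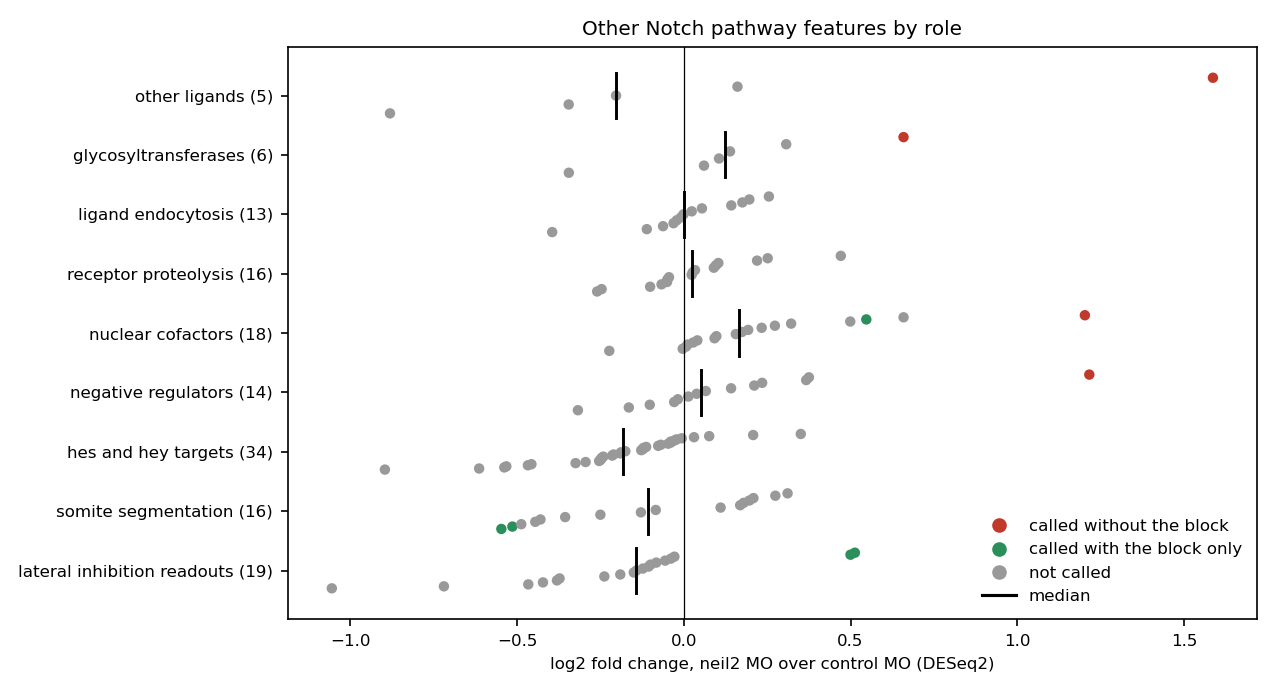
Each point is the log2 fold change of 1 tested feature of the pathway list from DESeq2, set out by role with the number tested in brackets; black lines are medians. Red points (dner.L, rfng.L, ep300.S and dtx1.L) were called without the block and green points with the block only, and 30 of the 34 hes and hey points are below 0.

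Marker levels of some tissues differed in value between the groups. All 7 neural tube marker features had negative log2 fold changes (median -0.14, 0 called), where 48.3% of all features tested were negative. Their summed level was 632 to 672 CPM in control MO and 514 to 579 CPM in neil2 MO libraries. tubb2b, counted among these markers, was also in the list of lateral inhibition features. All 6 tested endothelial and blood markers were also negative (median -0.58), with sums of 53.4 to 93.6 CPM and 38.6 to 58.2 CPM. Of these kdr.S, the vascular growth factor receptor, fell (log2 fold change -1.20, adjusted p = 0.0986, DESeq2). Among the fits leaving out 1 library, only that without neil2 MO replicate 1 kept this call (adjusted p 0.15 to 0.75 in the other 5). kdr.L gave -0.69 (adjusted p = 0.20, DESeq2). With the block DESeq2 called both copies lower (adjusted p = 0.0121 for kdr.S and 0.00917 for kdr.L), where 5.88% of all features were called. edgeR without the block called neither copy.

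The sums of the somite markers were 2270 to 2636 CPM in control MO and 2134 to 2186 CPM in neil2 MO, with 4 of 8 negative. On DESeq2-normalized counts the groups overlapped for both copies of actc1, which had the highest levels of these markers. Pronephric markers were negative in 5 of 5 tested features, at 67.5 to 90.2 CPM and 49.6 to 77.1 CPM. Endodermal markers overlapped between the groups, at 246 to 289 CPM and 194 to 266 CPM, with 4 of 8 negative. Epidermal markers summed to 14634 to 17505 CPM and 16436 to 20141 CPM, with 2 of 9 negative. The part of these markers in the values of jag1.S, lfng, hey1 and foxj1 was not tested.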

How the data were processed

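The deposited values are read counts per gene feature. For the frog data the authors aligned reads with STAR 2.5.4b to X. laevis assembly v9.2 and counted them with featureCounts 1.5.1 on the JGI annotation with default parameters, which leave out multi-mapping reads and reads over several genes. Reads of near-identical homeologs are therefore uncertain. The default counts without strand, and the TruSeq RNA v2 kit does not mark it, so reads of overlapping genes cannot be told apart by strand. In RefSeq v10.1, which matched 17 of the 19 members, notch2.L and dlc.L overlap another gene.

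Counts were scaled to CPM for display and tested with DESeq2 1.42.0 (Wald test, independent filtering) in R 4.3.3, with edgeR 4.0.16 (quasi-likelihood) as the alternative. Homeolog ratios were tested with limma 3.58.1 on log2 ratios (0.5 added to each normalized count), where both copies averaged 10 counts or more. The DESeq2 and edgeR fits, with and without the block, and the limma fit without it were tested on simulated counts. The simulation held no effect of the replicate number, and its planted changes were larger than those of any member. It therefore does not show how well changes of the members' size are found. No pair of libraries agreed within sampling noise.

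Groups and replicate numbers come from the sample labels, which do not say what a number shares. Deviations of same-numbered libraries from group means correlated across 23779 features (r = 0.585, 0.566 and 0.633), so the numbers were taken to pair the libraries. Alternatives were the block, other size factors, filters and leaving out each library. All members, neil2, and list features called by DESeq2 with or without the block were named, except 1 that is not reported here. The members and lists were chosen with earlier results of these data known. The list symbols dll3, mfng, poglut1, aph1b, rbpjl, dtx3l, bend6, heyl, ripply1 and mcidas were not analysed here.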

Additional observations from a re-analysis of the deposited data

How the results depend on the processing

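Without a block, 0 member features were called under edgeR, TMM or total count size factors, no independent filtering and a minimum mean count of 10. The replicate block gave 1 call (jag1.S), edgeR with the block 2 (jag1.S at -0.78 and jag2.L at -0.78), and leaving out 1 library 0 to 1. The pathway list had 4 calls, 1 under edgeR, 9 with the block, 14 under edgeR with the block and 2 to 4 without 1 library. Over all features 537 calls became 126 under edgeR, 1297 with the block, 2540 under edgeR with the block and 270 to 539 without 1 library. The block changed homeolog ratio calls from 0 to 1 (jag1).

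The sign was unstable only for members near 0. With total count size factors, which shifted the median log2 fold change by -0.05, notch3.S went to -0.034 and dlc.L to -0.0020. Leave-one-out ranges of log2 fold changes crossed 0 for notch1.L (-0.15 to 0.027), notch3.S (-0.11 to 0.13), dll1.S (-0.27 to 0.0076), dlc.L (-0.10 to 0.26), jag1.L (-0.25 to 0.13) and jag2.S (-0.076 to 0.28). The cause was not tested. Depth limits dll4.L (6 to 24 counts) and jag2.L (21 to 108 counts) most, and with 3 libraries a group the median SE over all features was 0.25 on the log2 scale.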

Other observations

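A receptor feature outside the members, notch4.L, had 0 to 2 counts per library, at or below the floor of 3 counts in every library, and no fold change is given.

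Homeolog balance was also measured in 63 pairs of the pathway list. None was called by limma without the block, and with it 3 were (ep300, mesp2 and kat2a), against 2.84% of all pairs. The L copy of ep300 gave 69.8%, 71.4% and 65.8% of the counts in control MO and 52.0%, 58.9% and 53.7% in neil2 MO (log2 ratio difference -0.87 ± 0.17, SE; adjusted p = 0.17 without and 0.0714 with the block, limma). For kat2a, another histone acetyltransferase, the shares were 52.1%, 52.1% and 58.7% in control MO and 66.0%, 63.7% and 68.6% in neil2 MO, the opposite direction (0.72 ± 0.17, SE; adjusted p = 0.25 and 0.0817). mesp2, a regulator of somite boundaries, had L shares of 40.7%, 37.9% and 49.3% in control MO and 29.0%, 24.8% and 38.8% in neil2 MO (-0.74 ± 0.28, SE; adjusted p = 0.44 and 0.0774). The groups did not overlap for ep300 and kat2a and overlapped for mesp2. How many of all pairs had groups apart in this way was not counted. These 3 pairs were named after their values were seen.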
